A study of Mus musculus with 2 samples.

Results

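Dmbt1 is 1 gene of the 31053 in the files, found by its symbol (ENSMUSG00000047517), and it was read in 11263 control and 11019 antagonist cells that passed the filters of at least 500 genes and at most 20% mitochondrial UMIs. It encodes a large secreted glycoprotein of scavenger receptor cysteine-rich, CUB and zona pellucida domains, also called muclin or CRP-ductin in the mouse. It is released by mucosal epithelia and glands, where it binds bacteria and other secreted proteins such as trefoil factors. In the small intestine it is known as a product of crypt epithelium. Lgr5 marks the stem cells of the crypt base, and Olfm4, a secreted glycoprotein, is abundant in those cells and in the progenitors next to them.

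The cells came from the jejunum of mice of 10 to 12 weeks that are labelled female, and were sorted for GFP. The mice had the Lgr5-eGFP-IRES-CreER allele, a knock-in reporter that is expressed in a mosaic of crypts. The groups were an Fc control and a FZD5/8 antagonist, which blocks a pair of receptors for Wnt proteins; both groups carry the reporter allele, and neither dose nor time is stated in the labels. There were 3 mice per condition and 1 droplet library per condition, with no label that ties a cell to a mouse. No replicate check and no test could be made from 1 library each, so every comparison is between these libraries and not between the conditions. Dmbt1 was chosen because it differed between them, so its levels are a description.

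Kept control cells had a median depth of 4478 UMIs (67411637 UMIs over 12672 barcodes) and kept antagonist cells one of 2732 (55810293 UMIs over 13085). Intervals are 95% intervals and cover counting error only. Both libraries are labelled female, but Y-linked genes summed to 106 CPM (UMIs per 1000000) in control and to 5.60 CPM in antagonist cells. Xist was at 1.33 and 512 CPM. Sex by these transcripts thus differed between the libraries, so sex and condition cannot be told apart in any comparison here. Lgr5, the gene behind the sort, was at 66.2 CPM in control but at only 3.09 CPM in antagonist cells, so its cells are called here by their markers and not as stem cells. The libraries shared 145 barcodes. Of these, 127 were kept in the antagonist library, with a median of 64920 UMIs and 12.3% of its UMIs, and 85 were kept in the control library, with a median of 3863 UMIs and 2.78% of its UMIs.

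Dmbt1 lies on GRCm38 chromosome 7, 131032053 to 131121630, on the plus strand. GENCODE M21 gives it 6 transcripts with up to 48 exons. The last exon, at the end of the transcript that a 3' assay reads, spans 131121069 to 131121630. The annotated span of Fgfr2 on the minus strand covers the gene, but no exon of another gene lies within it, and Fgfr2 itself had 666 and 141 UMIs. The neighbouring 5430419D17Rik (131174402 to 131306451), which encodes a protein of like domains, had 0 UMIs in both libraries.

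Dmbt1 was abundant in both libraries and higher in the antagonist library. It had 71499 UMIs in the control library, 1080 CPM (1072 to 1088), and 206598 UMIs in the antagonist library, 3803 CPM (3786 to 3819). The ratio was 3.52 (3.49 to 3.55). By UMIs it was the 147th gene of the control library and the 27th of the antagonist library. Without the shared barcodes, an alternative chosen after seeing the data, the levels were 1100 and 3952 CPM. Among the 13757 genes with 20 or more UMIs, 6.50% were higher by 1.5-fold or more, and Dmbt1 was 54th in order of the log2 ratio (1.82, against a median of -0.15 over those genes). Since the gene was picked from this contrast, nothing is read from its place there.

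The cells of each library differed in how Dmbt1 was spread among them. At equal depth, with each cell thinned to 3000 UMIs, 7536 control and 5036 antagonist cells remained, and 3727 and 5983 shallower cells were left out. The thinned control cells had a mean of 3.11 ± 4.93 UMIs (SD over cells) and a median of 1, with quartiles of 0 and 4. The thinned antagonist cells had a mean of 12.7 ± 9.70 and a median of 11, with quartiles of 6 and 17. The commonest value in the control library was 0, in 35.6% of cells, and in the antagonist library it was 9, in 6.47% of cells. The control cells therefore formed a long tail from 0, and the antagonist cells a broad hump with few cells at 0.

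At least 1 Dmbt1 UMI was detected in 64.4% (63.3 to 65.4) of the thinned control cells, against 96.6% (96.1 to 97.1) on the antagonist side. Without thinning the shares were 71.0% and 95.4%. No class lacked Dmbt1, so no share could be read as pure background. Tuft cells, the chemosensory class, showed a UMI in 38.2% of the 186 control and 79.7% of the 64 antagonist cells left after thinning. Without thinning these were 47.4% and 57.9%, at median depths of 4507 and 1886 UMIs. Thinned shares below those of tuft cells were found in control Paneth cells (17.6%), in goblet cells of the antagonist library (68.8%) and in cells of more than 1 lineage (23.9% and 54.1%). A count of 10 or more UMIs was reached by 8.86% of control and 55.9% of antagonist cells. The decile of thinned cells with the most Dmbt1 held 48.5% of the control Dmbt1 UMIs and 27.3% of the antagonist ones. The libraries overlapped, with 6.40% of thinned control cells above the antagonist median. Free RNA in the droplets was not tested.

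**Figure D1:**
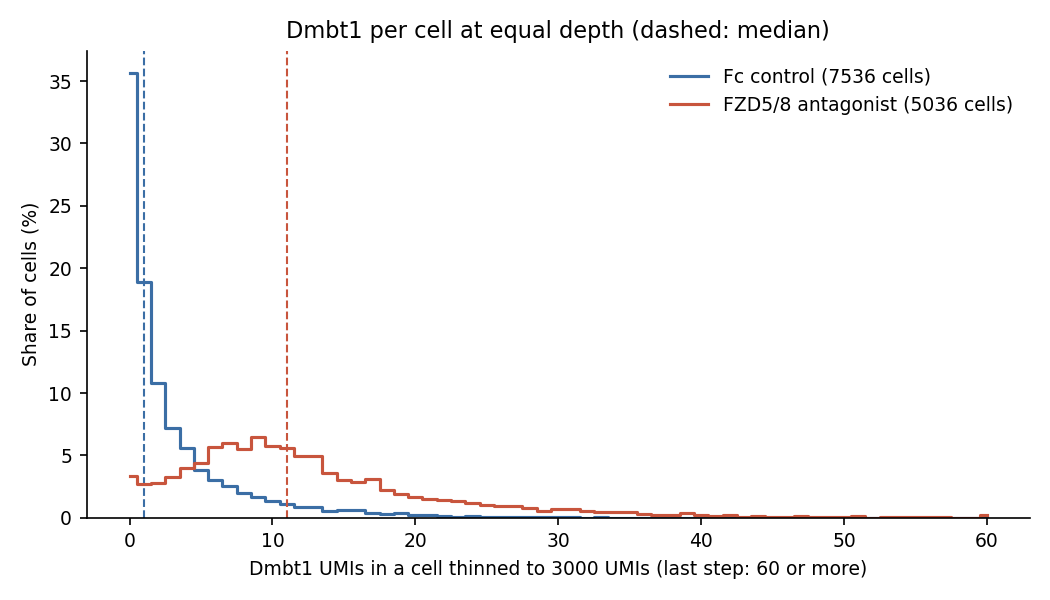
Share of cells (y axis, percent) at each number of Dmbt1 UMIs (x axis) after thinning to 3000 UMIs, for 7536 control and 5036 antagonist cells, with the median of each library dashed. The control line falls from 35.6% at 0, while the antagonist line peaks at 9 UMIs.

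Cells were put into classes by the share of their UMIs in marker lists without Dmbt1 and Olfm4. Crypt cells, those past no lineage gate, were split into G2 and M phase, S phase, and the non-cycling rest with or without an Lgr5 UMI. Non-cycling here means past neither cycle gate, and such cells were not free of cycle transcripts. The classes are ranges of a score and not sharp types. For example, 937 control and 2038 antagonist cells had G2 and M shares near the cut, from 0.8 times to 1.25 times it, and 1832 and 2234 cells were as near to the S phase cut. A lack of an Lgr5 UMI also depends on depth. Lgr5-negative and Lgr5-positive non-cycling cells had medians of 3311.5 and 4809 UMIs in control, and of 2365.5 and 5181 UMIs in antagonist.

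Among classes with at least 50 cells in each library, control levels ran from 1581 CPM in S phase cells (1557 to 1605) to 44.7 CPM in Paneth cells (37.2 to 53.1). Crypt cells in G2 and M phase stood at 1514 CPM (1492 to 1536) and Lgr5-negative non-cycling cells at 1095 CPM (1079 to 1111). Secretory progenitors, gated on the lineage factor Atoh1 or the Notch ligand Dll1, were at 1038 CPM, within counting error of mature enterocytes at 1027 CPM. Goblet cells, the mucus producers, were at 713 CPM. Tuft cells at 588 CPM, Lgr5-positive non-cycling cells at 585 CPM and hormone-producing enteroendocrine cells at 584 CPM could not be told apart. Cells of more than 1 lineage were at 373 CPM (342 to 406). Dmbt1 in the control library was thus lower in Lgr5-positive cells than in the other crypt classes, and lowest in Paneth cells.

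In the antagonist library the order began with G2 and M phase cells at 5228 CPM (5183 to 5273), S phase cells at 4641 CPM (4592 to 4690) and Lgr5-negative non-cycling cells at 3939 CPM (3910 to 3969). Secretory progenitors (3006 CPM), the 54 Lgr5-positive non-cycling cells (2992 CPM, 2863 to 3126) and enteroendocrine cells (2860 CPM) overlapped in their intervals. Mature enterocytes followed at 2464 CPM and goblet cells at 2008 CPM. The lowest were tuft cells at 1558 CPM (1466 to 1654), cells of more than 1 lineage at 1421 CPM (1299 to 1551) and Paneth cells at 1366 CPM (1317 to 1417), each overlapping the next. Of the 127 shared barcodes in this library, 63 fell in the secretory progenitor class, which was 4.71% of its cells but 21.4% of its UMIs. Among the classes of at least 50 cells, the cycling classes, which were not gated on Lgr5, and the Lgr5-negative non-cycling class thus held the first 3 places in both libraries, and Paneth cells the last. Immature enterocytes, absorptive cells with early brush border transcripts, were few, with 11 control cells at 2614 CPM (2220 to 3057) and 36 antagonist cells at 6177 CPM (5653 to 6737), each the highest level of its library.

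Each of the 11 classes with at least 50 cells in both libraries had a higher level in the antagonist library, by 1.5-fold or more. The ratio was 5.11 (4.86 to 5.38) in Lgr5-positive non-cycling cells, 3.60 (3.54 to 3.66) in Lgr5-negative ones, 3.45 in G2 and M phase and 2.94 in S phase. The ratio was 2.40 (2.28 to 2.52) in mature enterocytes, 2.65 (2.42 to 2.90) in tuft cells and 2.82 (2.64 to 3.00) in goblet cells, and the order of these 3 differed with equal weight for each cell, at log2 values of 1.73, 1.69 and 1.62. Paneth cells had the largest, 30.6 (25.6 to 36.8), but its log2 value of 4.94 ran from 3.44 to 5.04 over the alternatives, with 4.64 without shared barcodes, which were 12 of the 65 control cells. The median depth of gated Paneth cells was 25242 UMIs in the control cells and 2815 UMIs in 324 antagonist cells, and the median share of Paneth markers was 63.3% and 26.6% of UMIs. Median G2 and M shares of gated Paneth cells were 0.00631% of UMIs in control and 0.151% in antagonist. Their median S phase shares were 0.00569% and 0.0786%. The Paneth class was thus not alike between the libraries. The part of these differences in the Paneth ratio was not tested. Cells of more than 1 lineage stood at a log2 ratio of 1.93, and at 3.07 without shared barcodes. Secretory progenitors stood at 1.53, at 2.16 with equal weight for each cell and at 2.54 without the decile of cells with the most UMIs.

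Class levels and class shares were exchanged between the libraries. With control levels and antagonist class shares the library would have stood at 1158 CPM, and with antagonist levels and control shares at 3715 CPM. With the mean of both libraries' shares the ratio was 3.36. Median G2 and M shares of Lgr5-negative non-cycling cells were 0.0598% of UMIs in control and 0.162% in antagonist, so classes were not alike between libraries. The exchange thus does not separate class make-up from class level. Depth and mitochondrial content were also unlike within the libraries. The quintile of antagonist cells with the most UMIs had 3207 CPM of Dmbt1, and the other quintiles 4515 to 5023 CPM. The quintiles of control cells by depth ran from 912 to 1204 CPM. The part of depth in the library difference was not tested.

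**Figure D2:**
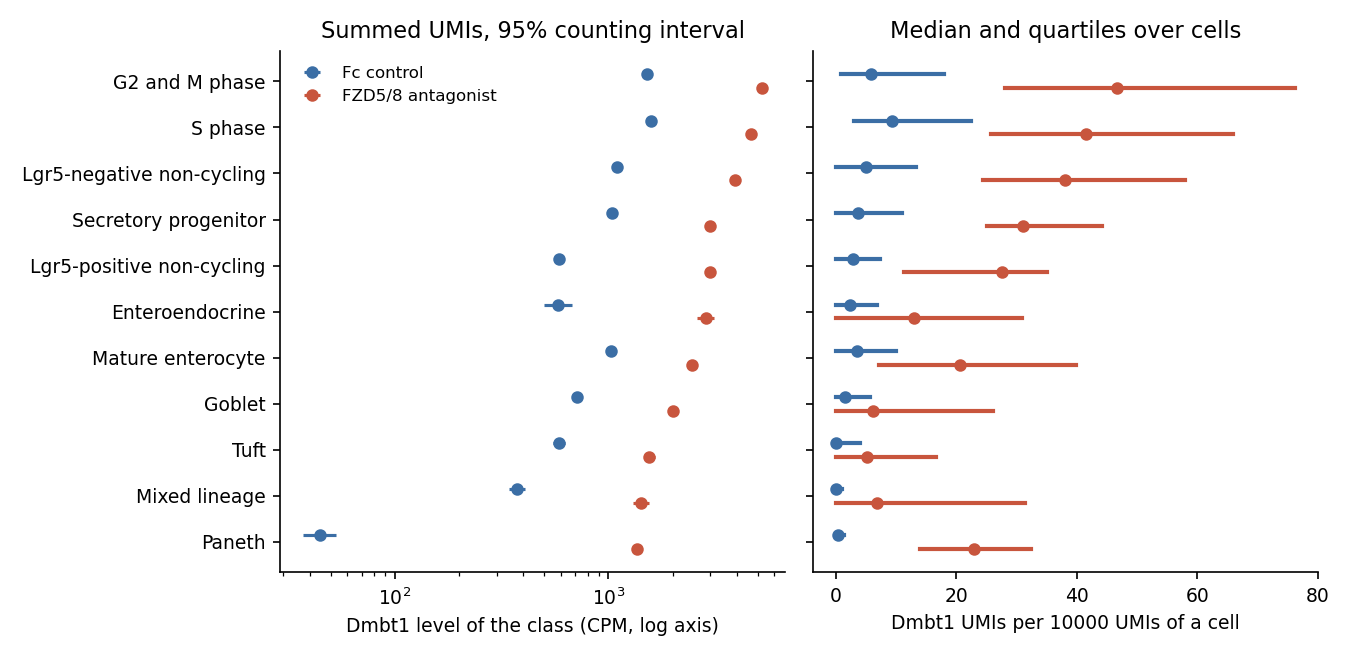
Dmbt1 in 11 classes with at least 50 cells in each library. The left panel has the level of the class in CPM on a log axis with its 95% counting interval, the right panel the median and quartiles over cells of Dmbt1 UMIs per 10000 UMIs; in each class the antagonist point lies to the right of the control point.

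Medians over cells gave another order for some lineages. Lgr5-positive control cells had a median of 2.77 Dmbt1 UMIs per 10000, against 4.99 in Lgr5-negative, 5.84 in G2 and M phase and 9.29 in S phase cells. The antagonist medians of the same classes were 27.5, 38.0, 46.7 and 41.6. Tuft cells had medians of 0 and 5.21 and goblet cells of 1.48 and 6.08. Antagonist Paneth cells, last by summed level, had a median of 22.9, above mature enterocytes (20.6) and enteroendocrine cells (12.9), and control Paneth cells one of 0.281. The upper quartile of S phase control cells (22.4) lay below the lower quartile of S phase antagonist cells (25.7).

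Within the control library, Lgr5-negative non-cycling cells had 1.87 times (1.82 to 1.93) the level of Lgr5-positive ones. In the antagonist library the ratio was 1.32 (1.26 to 1.38), between cells with median depths of 2365.5 and 5181 UMIs. The part of depth in these ratios was not tested. Gated on all 14 stem markers in place of Lgr5, the lowest quintile of non-cycling cells stood at a log2 ratio of 1.53 over the highest quintile in the control library, against 0.90 for the Lgr5 gate, and at 0.29 against 0.40 in the antagonist library. The difference between the libraries in these ratios was not tested.

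How Dmbt1 went with Olfm4 in the same cells depended on which cells were counted. Olfm4 stood at 2325 CPM in control and 323 CPM in antagonist cells. Over all thinned cells, control cells with 0 Olfm4 UMIs had a mean of 4.74 Dmbt1 UMIs (4.58 to 4.90) and those with 1 to 2 had 5.43 (5.28 to 5.58). From there the control means went down to 3.95 at 3 to 5, 2.58 at 6 to 10 and 1.19 at 21 or more Olfm4 UMIs. The antagonist means were 13.3 (13.2 to 13.4) at 0, 12.6 at 1 to 2, 9.77 at 3 to 5 and 7.59 at 6 to 10. The ratio of antagonist to control was 2.81 (2.71 to 2.91), 2.32 (2.25 to 2.40), 2.47 (2.37 to 2.58) and 2.95 (2.74 to 3.17) in these 4 bins, so it had no steady direction along Olfm4. At each of these Olfm4 counts the antagonist cells had more Dmbt1.

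Cells with 0 Olfm4 UMIs include the differentiated lineages, and a restriction to crypt classes, chosen after seeing the data, gave other values at the low end. Control crypt cells with 0 Olfm4 UMIs (248 cells) had a mean of 10.0 Dmbt1 UMIs (9.62 to 10.4), those with 3 to 5 (1118 cells) had 4.16 (4.04 to 4.28) and those with 21 or more (204 cells) had 1.23 (1.08 to 1.39). Antagonist crypt cells went from 15.1 at 0 (2245 cells) to 10.1 (9.74 to 10.5) at 3 to 5 (300 cells) and 7.71 (7.19 to 8.26) at 6 to 10 (104 cells). Within crypt classes, then, Dmbt1 was lower in cells with more Olfm4 in each library.

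The ratio of antagonist to control crypt cells was 1.51 (1.45 to 1.57) at 0 Olfm4 UMIs, against 2.81 over all cells. It was 1.83 (1.77 to 1.90) at 1 to 2, 2.43 (2.32 to 2.54) at 3 to 5 and 2.97 (2.75 to 3.20) at 6 to 10. In non-cycling crypt cells the ratios were 1.59 at 0, 1.96 at 1 to 2 and 2.97 at 3 to 5 Olfm4 UMIs. The first of these rests on 89 control cells, and its log2 value of 0.67 was 0.44 and 0.51 in other random draws of the thinning, which is under 1.5-fold.

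**Figure D3:**
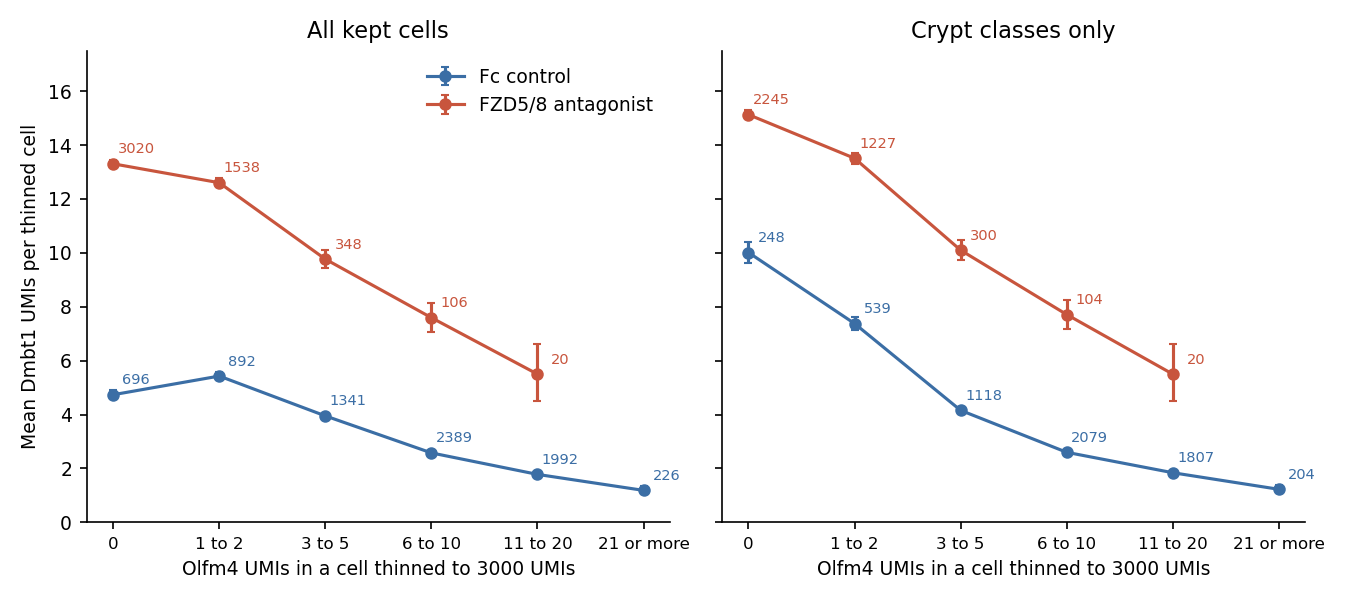
Mean Dmbt1 UMIs per cell thinned to 3000 UMIs (y axis, bars are 95% counting intervals) by the Olfm4 UMIs of the same cells (x axis), over all kept cells and in crypt classes alone, for bins of at least 20 cells with the number of cells printed. At 0 Olfm4 UMIs the control mean is 4.74 over all cells and 10.0 in crypt classes, and the antagonist points lie above the control points of the same bin.

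Cells without stem cell transcripts were rare in the control library and common in the antagonist library. Of thinned non-cycling crypt cells, 0.662% (23 cells) in the control library and 12.6% (208 cells) in the antagonist library had neither an Olfm4 UMI nor a UMI of the 14 stem markers. Their means were 7.17 (6.12 to 8.36) and 13.9 (13.4 to 14.5) Dmbt1 UMIs. Cells with both kinds of UMI had 2.33 (2.28 to 2.39) in the control library (3368 cells) and 10.8 in the antagonist library (664 cells). Cells with a stem marker but no Olfm4 UMI had 9.03 (8.32 to 9.79) in 66 control cells and 13.5 (13.2 to 13.7) in 693 antagonist cells. Those with Olfm4 but no stem marker UMI had 5.53 (4.41 to 6.86) in 15 control cells and 11.4 in 91 antagonist cells. The control mean was highest in cells with a stem marker but no Olfm4 UMI, but its interval overlapped that of cells with neither. The control medians had the other order, 5 in the former and 6 in the latter. In the highest range of Dmbt1, 21 or more UMIs, 0 of 105 control crypt cells had an Lgr5 UMI, against 26.7% of those without Dmbt1. A count of 0 there allows a share of up to 2.86% of cells with a UMI at this depth, which is no limit on cells that express the gene. The antagonist shares were 0.943% of 742 cells with 21 or more Dmbt1 UMIs and 7.69% of the 26 without.

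As a description across cells that share a library and a depth, Spearman's rho of Dmbt1 with Olfm4 was -0.35 over 5995 control and -0.17 over 3900 antagonist crypt cells. With the sum of 14 stem markers it was -0.29 and -0.06. With the villus-bottom list, genes of early absorptive cells, it was 0.20 and 0.19, and with MHC class II transcripts -0.15 and -0.23. These are weak values in sparse counts.

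Cell cycle transcripts and Dmbt1 were related in different ways in the libraries. Crypt control cells had a mean of 2.14 Dmbt1 UMIs (2.01 to 2.27) with no S phase UMI, 3.21 (3.13 to 3.29) with 3 to 5 and 6.12 (5.88 to 6.36) with 11 to 20. Antagonist crypt cells had 15.8 (15.3 to 16.4) with none, 12.9 (12.7 to 13.1) with 6 to 10 and 16.3 (15.9 to 16.7) with 11 to 20. The control series climbed across these bins, and the antagonist series dipped and returned. Along the G2 and M list, control cells went from 2.42 (2.33 to 2.51) with none to 4.38 (4.23 to 4.53) with 11 to 20 UMIs and 4.08 (3.92 to 4.24) with more, and antagonist cells from 13.4 (12.9 to 13.8) with none down to 12.4 (12.2 to 12.7) with 6 to 10 and up to 19.4 (19.0 to 19.8) with 21 or more.

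As classes, S phase control cells had 1.74 times (1.70 to 1.77) and G2 and M phase control cells 1.66 times (1.63 to 1.69) the level of non-cycling crypt cells, which stood at 911 CPM. In the antagonist library the ratios to the non-cycling level of 3904 CPM were 1.19 (1.17 to 1.20) and 1.34 (1.32 to 1.35). With the marker cuts halved these antagonist ratios turned, to log2 values of -0.042 and -0.069. Within a phase, Dmbt1 was lower in cells with more Olfm4. Control G2 and M phase cells had 11.9 Dmbt1 UMIs (11.2 to 12.7) with no Olfm4 UMI and 2.30 (2.20 to 2.41) with 6 or more. Antagonist G2 and M phase cells had 18.0 (17.7 to 18.2) with none and 9.41 (8.55 to 10.3) with 6 or more, the latter in 46 cells. Grouped by Dmbt1 itself, crypt cells with a UMI of the proliferation marker Mki67 made up 27.4% of control cells without Dmbt1 and 50.5% of those with 21 or more UMIs. The antagonist shares were 23.1% of 26 cells and 53.2% of 742 cells. Pcna, a replication factor, was detected in 16.8% and 27.6% of the same control cells and in 23.1% and 25.3% of the antagonist cells.

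**Figure D4:**
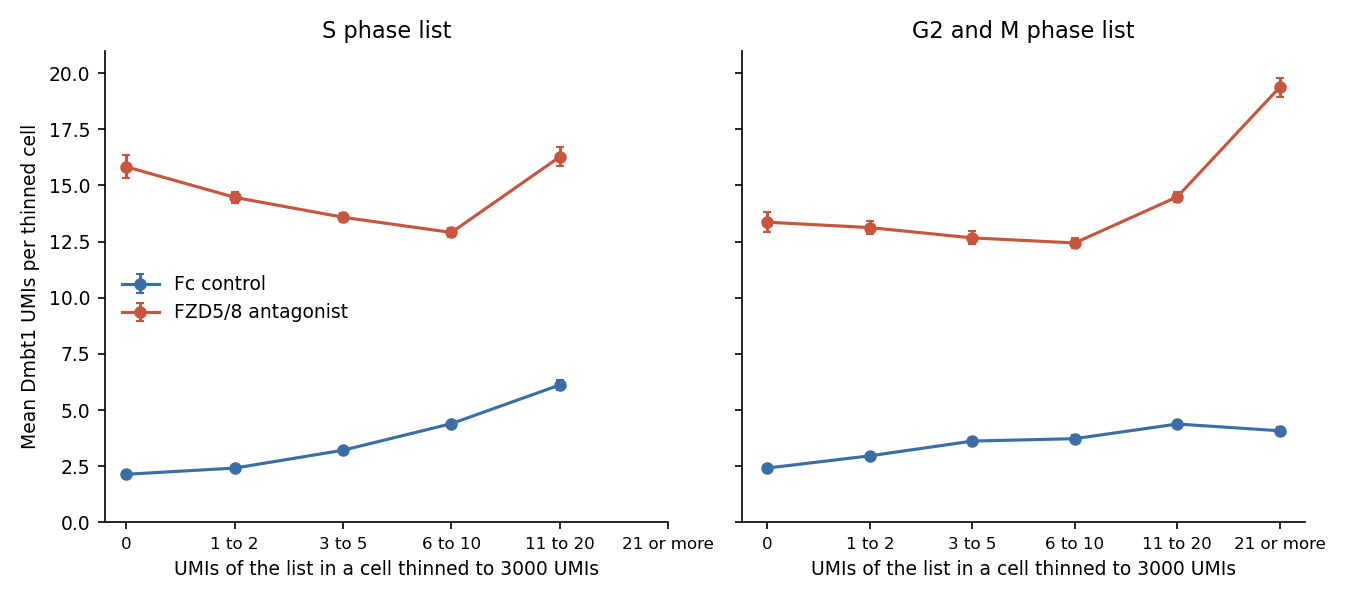
Mean Dmbt1 UMIs per crypt cell thinned to 3000 UMIs (y axis, bars are 95% counting intervals) by the UMIs of the S phase list and of the G2 and M phase list in the same cell (x axis), for bins of at least 20 cells. Control cells go from 2.14 to 6.12 along the S phase list, and antagonist cells reach 19.4 at the upper end of the G2 and M list.

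Over 3133 genes found in at least 10% of thinned cells of each library, Pigr was most like Dmbt1, with rho of 0.27 in the control and 0.41 in the antagonist library. Pigr encodes the receptor that carries immunoglobulin A across the epithelium, and its own level differed little between the libraries (1286 and 1519 CPM). It was followed by the keratin Krt19 (0.26 and 0.31), the galectin Lgals2 (0.34 and 0.24), the keratin Krt8 (0.22 and 0.26), Lypd8 (0.22 and 0.19), Pycard (0.28 and 0.18), Aldh1b1 (0.16 and 0.25) and Cox5b (0.17 and 0.16). Lypd8 is a secreted protein that binds flagellated bacteria, and Pycard an adaptor of inflammasomes. The most unlike was Krt18 (-0.19 and -0.13), also a keratin, followed by Selenom, Rnase4, Spcs1, Glrx, Fxyd3, Agr2 and Itm2b, with values from -0.23 to -0.09. The medians over the compared genes were 0.02 and 0.03, and 4 genes had rho above 0.2 in both libraries. These values are over all lineages. Within crypt classes Pigr stood at 0.28 and 0.40, but in the antagonist library Pycard was at 0.05 and Cox5b at 0.07, and Selenom was at -0.02 and -0.06.

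**Figure D5:**
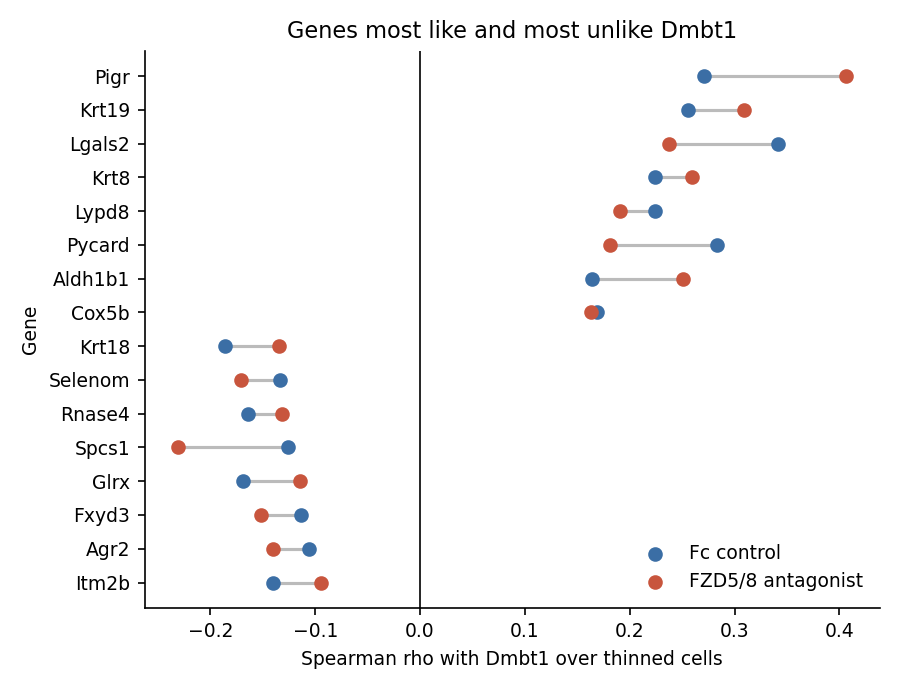
Spearman rho with Dmbt1 over cells thinned to 3000 UMIs (x axis) for the 8 most like and 8 most unlike of 3133 genes (y axis), with a point for each library. Pigr reaches 0.41 in the antagonist library and Spcs1 lies lowest there at -0.23.

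Pathway and protein family lists differed in how many of their genes were higher in the antagonist library. Of the 18 genes on a list of IL-22 and STAT3 responses, 14 were measured, with 2 higher and 4 lower by 1.5-fold or more, and a median log2 ratio of -0.19 against -0.15 over all genes. Over all genes 6.50% were higher and 19.3% lower. Reg3b, a bactericidal lectin, was lower in the antagonist library (1355 and 333 CPM), as was its relative Reg3g (1470 and 404 CPM), and Reg1 (157 and 268 CPM) and Reg3a (18.0 and 28.2 CPM) were higher. Of 18 scavenger receptor cysteine-rich genes 5 were measured, 0 higher and 2 lower, and the sole member above 20 CPM, Lgals3bp, was at 170 and 204 CPM. None of 12 zona pellucida domain genes reached 20 UMIs.

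Among ligands and mucosal partners, 3 of 9 measured genes were higher and 0 lower (median 0.10), against 6.50% and 19.3% over all genes. The higher ones were Lgals3 (14.8 and 30.6 CPM), a galectin, and the mucins Muc3 (156 and 282 CPM) and Muc2 (94.8 and 156 CPM), while Spink4 was at 3013 and 2716 CPM, Galnt7 at 60.1 and 51.0 CPM and Fut8 at 92.7 and 91.8 CPM. In Lgr5-negative non-cycling cells alone, where 9.73% of 12044 genes were higher, 5 of 8 of these were higher. Spink4 was there at 259 and 1554 CPM and Muc2 at 5.94 and 95.1 CPM, so goblet cell transcripts were also higher in the antagonist library there. Within the non-cycling crypt cells of a library, rho of Dmbt1 with the summed goblet markers was 0.01 in control and -0.03 in antagonist cells. Those cells had not passed the goblet gate, which narrows the range. Over all thinned cells rho was -0.08 and -0.17. In Lgr5-negative non-cycling cells the summed goblet markers had medians of 0.02% and 0.05% of UMIs. Their part in the Dmbt1 difference was not tested.

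The villus-bottom and stem lists, as the other lists, were chosen with earlier results of these libraries known, so their directions are not independent. Of the 12 villus-bottom genes 10 were higher and 0 lower, with a median of 1.89, against 6.50% higher and 19.3% lower over all genes. Gsdmc4, a gasdermin, was at 4.82 and 36.7 CPM, Rbp7, a retinol-binding protein, at 19.0 and 94.2 CPM, and Car4, a carbonic anhydrase, at 20.9 and 93.3 CPM, while Cbr1 was at 104 and 99.2 CPM. All 20 genes of the stem list were lower, with a median of -2.41, from Rgcc (71.2 and 6.42 CPM) to Znrf3 (22.6 and 13.4 CPM). Of 10 interferon and MHC class II genes 7 were lower, among them Cd74 (594 and 267 CPM). Of 19 epithelial transcription factors 0 were higher and 3 lower, and nothing is read from counts near the shares over all genes. Klf5, a factor of proliferating crypt cells, was at 238 and 355 CPM, and Foxa3, which takes part in secretory differentiation, at 44.5 and 14.0 CPM.

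The S phase list had 4 of 25 genes higher and 0 lower (median 0.21), and the G2 and M list 5 of 26 higher and 0 lower (median 0.47). Over all genes 6.50% were higher and 19.3% lower. Pcna was at 73.8 and 93.8 CPM and Mki67 at 187 and 247 CPM. In Lgr5-negative non-cycling cells, where 9.73% of genes were higher and 20.7% lower, 24 of 26 G2 and M genes were higher. Mki67 was at 84.0 and 171 CPM in that class, so cycle transcripts too were higher there in the antagonist library. Their part in the Dmbt1 difference was not tested. Over all crypt classes, rho of Dmbt1 with the G2 and M sum was 0.10 in control and 0.14 in antagonist cells. With the S phase sum it was 0.24 and -0.003. Within non-cycling crypt cells these were 0.09 and -0.01, and 0.15 and -0.02. Non-cycling cells passed neither cycle gate, which narrows the range of both sums, so nothing is read from their values.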

How the data were processed

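Dmbt1 was described in both libraries, 1 per condition. The deposited values are raw UMI counts for each gene in each barcode; per the submitters' processing notes they were made with Cell Ranger on GRCm38 (mm10), and per the file headers with software version 3.1.0. How barcodes were chosen is not given in the sources used here; each had at least 500 UMIs. Doublets were not removed. Levels are summed UMIs over the total, with exact Poisson, conditional binomial (ratios) and Clopper-Pearson (shares) intervals at 95%. Cells were gated on shares of UMIs in at least 3 markers: Paneth 15%, goblet 2%, tuft 0.2%, enteroendocrine 0.5%, mature enterocyte 1%, immature enterocyte 0.3%, immune 0.5%, S phase 0.2%, G2 and M phase 0.4%. The 3 control and 1 antagonist immune cells, and cells of more than 1 lineage, formed classes of their own. Cuts were set after seeing the marker distributions, never from Dmbt1. The gene, lists and rules were chosen with earlier results of these data known. Named genes were the 8 most like and 8 most unlike Dmbt1 by the weaker rho, Lgr5, Olfm4, Mki67 and Pcna, and, from lists with such members, the 3 highest and 3 lowest by ratio with 20 CPM, of which examples are given. Thinning drew 3000 UMIs per cell without replacement (numpy 2.4.6). Ratios and rank correlations were tested on simulated counts, and thinning on control barcodes. The simulated ratios held counting error only, while the variance of Dmbt1 over cells was 30.1 times its mean in control and 42.4 times in antagonist cells. Alternatives were other cell filters, scalings, weights, depths and gates.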

Additional observations from a re-analysis of the deposited data

Results flagged for a closer look

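The barcodes that failed the cell filter held Dmbt1 at a higher level in the antagonist library than in the control library. They entered no comparison but the alternative with all deposited barcodes. It was at 3679 CPM (3582 to 3778) in 2066 antagonist barcodes, from 5453 UMIs, and at 870 CPM (818 to 925) in 1409 control barcodes, from 1049 UMIs. The levels of kept cells were 3803 and 1080 CPM.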

How the results depend on the processing

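The higher Dmbt1 level in the antagonist library kept its direction in every alternative run. Its log2 ratio of 1.82 was 1.78 with a total that leaves out Dmbt1, mitochondrial and ribosomal protein genes, 2.12 with equal weight for each cell, 2.03 in thinned cells, 2.17 without the decile of cells with the most UMIs, 1.75 at mean class shares, 1.88 in crypt classes and 1.85 without shared barcodes, the last pair chosen after seeing the data. Without the deepest decile, 7 of 7 classes with enough cells passed 1.5-fold, against 11 of 11. All 131 alternative values of single classes and Olfm4 bins were above 0, and 129 were past 1.5-fold. The difference in the share of cells with a UMI, 32.3 percentage points, was 41.0 at 1500 UMIs, 22.1 at 5000 and 24.4 without thinning. All 4 Olfm4 bins over all cells passed 1.5-fold. In non-cycling crypt cells 3 of 3 did, and 2 of 3 in each of the other draws. In crypt classes the log2 ratio at 0 Olfm4 UMIs was 0.60, against 1.49 over all cells.

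The log2 ratio of Lgr5-negative over Lgr5-positive cells was 0.90 in the control library, with 0.97 thinned, 0.86 and 0.99 with cuts halved and doubled, 1.10 against cells with 2 or more Lgr5 UMIs and 1.53 by stem markers. In the antagonist library it was 0.40, with 0.62 at equal weight, 0.54 without the deepest decile, 0.71 and 0.49 with cuts halved and doubled, 0.29 against cells with 2 or more Lgr5 UMIs and 0.29 by stem markers.

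S phase over non-cycling was 0.79 in the control library, with 0.94 thinned, 0.91 without the deepest decile and 0.84 and 0.85 with cuts halved and doubled. In the antagonist library it was 0.25, with 0.17 at equal weight, 0.11 thinned, 0.11 without the deepest decile, -0.042 with cuts halved and 0.59 with cuts doubled. G2 and M phase was 0.73 in the control library, with 0.76 under the stricter cell filter, 0.68 with the reduced total, 0.62 at equal weight and 1.05 and 0.27 with cuts halved and doubled. In the antagonist library it was 0.42, with 0.47, 0.39 and 0.33 under the same first 3, 0.34 without the deepest decile, -0.069 with cuts halved and 0.78 with cuts doubled. The cause of these shifts was not tested. No paired analysis was possible because there is 1 library per group. Depth limits what can be said of Lgr5-negative cells, since 1 UMI decides the gate.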
